A study of Mus musculus with 6 samples.

Results

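The alpha and beta crystallins Cryaa, Cryab, Cryba1, Cryba2, Cryba4, Crybb1 and Crybb3 were followed in polyadenylated RNA of mouse retina at embryonic day 14.5. These 7 genes, chosen by symbol, are 7 of the 23441 genes in the deposited count table, and their high values in some conditional knockout (CKO) libraries were known when they were chosen. The CKO group held 3 libraries of mice with both alleles of Ronin (Thap11, a THAP-family zinc finger transcription factor gene) floxed and a heterozygous Chx10-Cre::GFP transgene, in which Cre fused to GFP is driven by Chx10, a gene of retinal progenitor cells. The control group held 3 libraries of Ronin flox/flox mice, which carry the same floxed alleles and no Cre transgene. All mice were of a mixed background that combined the strains C57/B6, SJL/B6, 129/Sv and FVB. The labels do not say whether replicates came from separate animals, pooled eyes or litters, so a p-value here reflects variation among the libraries, part of which may be technical.

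Crystallins are the soluble proteins that fill the fibre cells of the lens and give it its refractive index. Alpha crystallins belong to the small heat shock proteins and act as chaperones that hold damaged proteins in solution. Beta crystallins are structural proteins of the betagamma superfamily, which assemble into oligomers and are grouped into acidic (Cryba) and basic (Crybb) types. In the mouse lens, alpha crystallins are made early and also in the anterior epithelium, whereas most beta and gamma crystallins accumulate as cells elongate into fibres. Crystallin transcripts have also been described at low levels in retina, and Cryab is made in many tissues outside the eye. The MAF, SOX and PAX6 transcription factors bind crystallin promoters in lens cells.

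Promoter sequence, which the choice of the 7 genes did not use, is shown for 4 of them. Of the short motifs marked, only TGCTGA is found in all 4. RefSeq promoter windows on build GRCm38.p6 matched 6 of the 7 genes; Cryab had no entry. The stretch of 200 bases before the annotated start is given for Cryaa at chr17:31677731-31677930 on the plus strand, Cryba1 at chr11:77725294-77725493 on the minus strand, Cryba4 at chr5:112252519-112252718 on the minus strand and Crybb1 at chr5:112255620-112255819 on the plus strand. Each runs 5′ to 3′ on the strand of its gene. Capitals mark TGCTGA, the core of the MAF recognition element, and ACAAAG, a SOX core, on either strand (TCAGCA and CTTTGT on the other), and TATAAA or TATATA, forms of the TATA box.
Cryaa: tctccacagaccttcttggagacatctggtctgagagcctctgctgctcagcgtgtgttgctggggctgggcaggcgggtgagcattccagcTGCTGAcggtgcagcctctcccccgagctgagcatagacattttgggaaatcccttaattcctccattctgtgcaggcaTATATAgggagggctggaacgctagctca
Cryba1: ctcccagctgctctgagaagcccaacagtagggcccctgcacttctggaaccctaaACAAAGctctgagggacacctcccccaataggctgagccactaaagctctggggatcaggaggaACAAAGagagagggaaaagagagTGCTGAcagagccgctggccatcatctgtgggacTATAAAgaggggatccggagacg
Cryba4: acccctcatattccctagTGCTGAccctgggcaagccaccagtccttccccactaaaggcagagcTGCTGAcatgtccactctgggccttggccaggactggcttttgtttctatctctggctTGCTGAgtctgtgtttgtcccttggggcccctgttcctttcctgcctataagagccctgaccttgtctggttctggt
Crybb1: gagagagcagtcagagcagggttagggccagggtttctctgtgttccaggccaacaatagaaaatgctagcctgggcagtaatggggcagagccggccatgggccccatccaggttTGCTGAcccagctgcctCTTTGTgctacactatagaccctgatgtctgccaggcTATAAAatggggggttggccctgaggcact

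The MAF core was found in all 6 windows searched, each 300 bases long and reaching 50 bases past the start, against 19.5% of all 32851 promoter windows outside chromosome 18. Cryba4 held 3 matches, whose first bases lay at -182, -135 and -77 from the start, and the other 5 genes held 1 match each, at -149 in Cryba2, -108 in Cryaa, -84 in Crybb1, -67 in Crybb3 and -57 in Cryba1. The SOX core was found in 3 of the 6 windows (Cryba1, Crybb1 and Crybb3) against 18.7% of all windows, and in Crybb1 it began 17 bases after the start of the MAF core. TATAAA was found in 3 of 6 windows against 13.6%, beginning at -30 in Crybb1, at -23 in Cryba1 and at -3 in Cryba2, where it spans the annotated start. TATATA was found in 1 of 6, beginning at -29 in Cryaa, against 5.67%. These 2 letter strings can overlap each other, and a match away from the usual place of a TATA box shows the letters only. The letters of a heat shock element, GAANNTTC, were in 0 of the 6 windows and in 7.86% of all windows. Among the 8 gamma crystallin genes, which encode monomeric fibre cell proteins, 4 windows held the MAF core and 7 held TATATA. A match describes the letters of a window and does not show that a factor binds there.

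**Figure D1:**
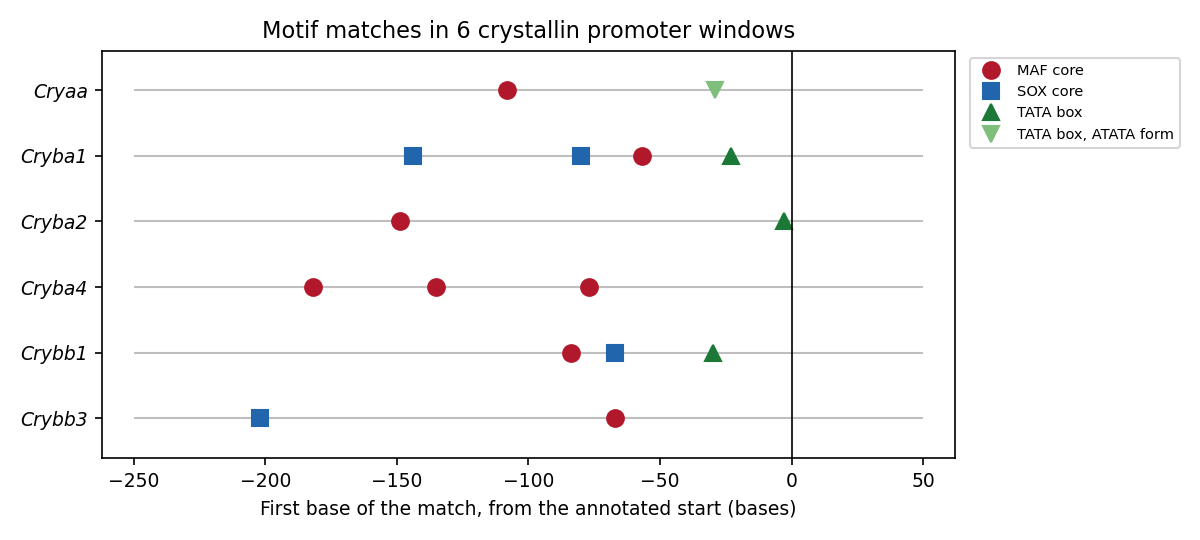
Positions of motif matches in the promoter windows of 6 alpha and beta crystallin genes, as bases from the annotated start (x axis) for each gene (y axis), with colours and shapes for the MAF core, the SOX core and the 2 TATA box forms. Every window holds at least 1 MAF core between -182 and -57.

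Cryba4 and Crybb1 lie head to head, with annotated starts 3297 bases apart on GRCm38 (GENCODE M21), and Crybb2 and Crybb3 are on the same chromosome. No run of 50 bases was shared between the transcripts of the 5 beta crystallins and any other annotated transcript, on either strand. Cryaa shared such runs only with the antisense transcript AC090881.2, and Cryab only with Hspb2, a small heat shock protein gene on the opposite strand. The sources used here do not say whether strand was kept, so reads of Cryaa and AC090881.2, or of Cryab and Hspb2, cannot be told apart where the genes overlap. The gamma crystallins Cryga to Crygf shared runs of 50 bases among themselves, and the division of reads between them is uncertain.

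Library totals lay between 23721052 and 28504391 counted reads. Thap11, the deleted gene, had 323, 292 and 156 reads in CKO replicates 1 to 3 and 1739, 1880 and 1880 reads in control replicates 1 to 3. The summed level of 10 retinal progenitor markers lay between 8100 and 8747 CPM (counts per 1000000 reads of the scaled library size) in the CKO and between 8425 and 9134 CPM in the controls, so the retinal label was met in every library. Over all genes tested, the spread was narrower among CKO libraries than among controls: the median range of log2 CPM was 0.19 in the CKO and 0.62 in the controls.

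All 7 crystallins together took 0.775% of the reads of CKO replicate 1, with a 95% exact binomial interval of 0.771% to 0.778%. They took 0.00588% in CKO replicate 2 (0.00559% to 0.00619%) and 0.0491% in CKO replicate 3 (0.0482% to 0.05%). In control replicates 1 to 3 the shares were 0.00142%, 0.000638% and 0.000906%. Every CKO library thus had a larger share than every control, and the intervals, which cover counting error only, did not meet between any CKO library and any control. As summed levels these were 7645, 56.9 and 476 CPM in CKO replicates 1 to 3 and 14.1, 6.94 and 9.06 CPM in control replicates 1 to 3. The group means were 2726 ± 4265 CPM in the CKO and 10.03 ± 3.68 CPM in the controls (SD, n = 3 each), so that the SD among CKO libraries exceeded their mean. Without CKO replicate 1 the CKO mean was 267 CPM. In bulk tissue, fewer cells of a type and less RNA per cell cannot be told apart.

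Cryaa encodes the alpha A chaperone, which is largely restricted to the lens. It had 93552, 928 and 4289 reads in CKO replicates 1 to 3, against 101, 24 and 75 reads in control replicates 1 to 3. In CPM it stood at 3239, 34.6 and 175 in the CKO and at 3.97, 1.05 and 2.86 in the controls. All 3 CKO libraries lay above all 3 controls, and replicate 1 lay 18.5-fold above replicate 3 and 93.5-fold above replicate 2. The fitted log2 fold change (CKO minus control) was 8.77 ± 1.84 (SE).

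Cryab encodes the alpha B chaperone, a small heat shock protein of lens, muscle and heart that is also induced by stress. It had 1732, 133 and 78 reads in the CKO replicates and 42, 16 and 26 reads in the control replicates, or 60.0, 4.97 and 3.19 CPM in the CKO and 1.65, 0.698 and 0.990 CPM in the controls. The groups did not overlap. Cryab had the smallest fold of the 7 in CKO replicates 1 and 3, at 53.9 and 2.87 times the control mean, and it alone was lower in replicate 3 than in replicate 2. Its fitted log2 fold change was 4.34 ± 1.18.

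Among the acidic beta crystallins, Cryba1 makes 2 proteins from alternative start codons of a single transcript and is a cataract gene in humans. It had 54504, 178 and 3013 reads in the CKO replicates and 82, 9 and 42 reads in the control replicates. These are 1887, 6.65 and 123 CPM in the CKO and 3.22, 0.393 and 1.60 CPM in the controls. The groups did not overlap, although CKO replicate 2 was within 2.06-fold of control replicate 1.

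Cryba2 and Cryba4 encode further acidic subunits of beta crystallin oligomers. Cryba2 had 4780, 12 and 282 reads in the CKO replicates against 6, 0 and 3 reads in the control replicates. The lowest CKO library again lay above the highest control, at 0.448 CPM in CKO replicate 2 and 0.236 CPM in control replicate 1, a gap that rests on 12 and 6 reads. Cryba4 had 8528, 10 and 563 reads in the CKO replicates and 18, 11 and 14 reads in the control replicates. It was the only member whose groups overlapped: CKO replicate 2, at 0.373 CPM, was below all 3 controls, which stood at 0.707, 0.480 and 0.533 CPM.

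Of the basic beta crystallins, Crybb1 encodes a fibre cell protein with extended terminal arms. It had 30090, 97 and 1934 reads in the CKO replicates and 72, 50 and 44 reads in the control replicates, or 1042, 3.62 and 79.1 CPM in the CKO and 2.83, 2.18 and 1.68 CPM in the controls. CKO replicate 2 stood at 1.63 times the control mean, close above the highest control. Its head-to-head neighbour Cryba4 lay below the controls in that library, but on only 10 reads against 18, 11 and 14 in the controls.

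Crybb3 encodes another basic beta crystallin of fibre cells. It had 27632, 167 and 1484 reads in the CKO replicates and 38, 49 and 34 reads in the control replicates, or 957, 6.23 and 60.7 CPM in the CKO and 1.49, 2.14 and 1.29 CPM in the controls. Its groups did not overlap. Crybb2, the remaining beta crystallin gene and one whose transcript becomes abundant in the lens after birth, had 4, 0 and 0 reads in the CKO replicates and 0 reads in each control.

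**Figure D2:**
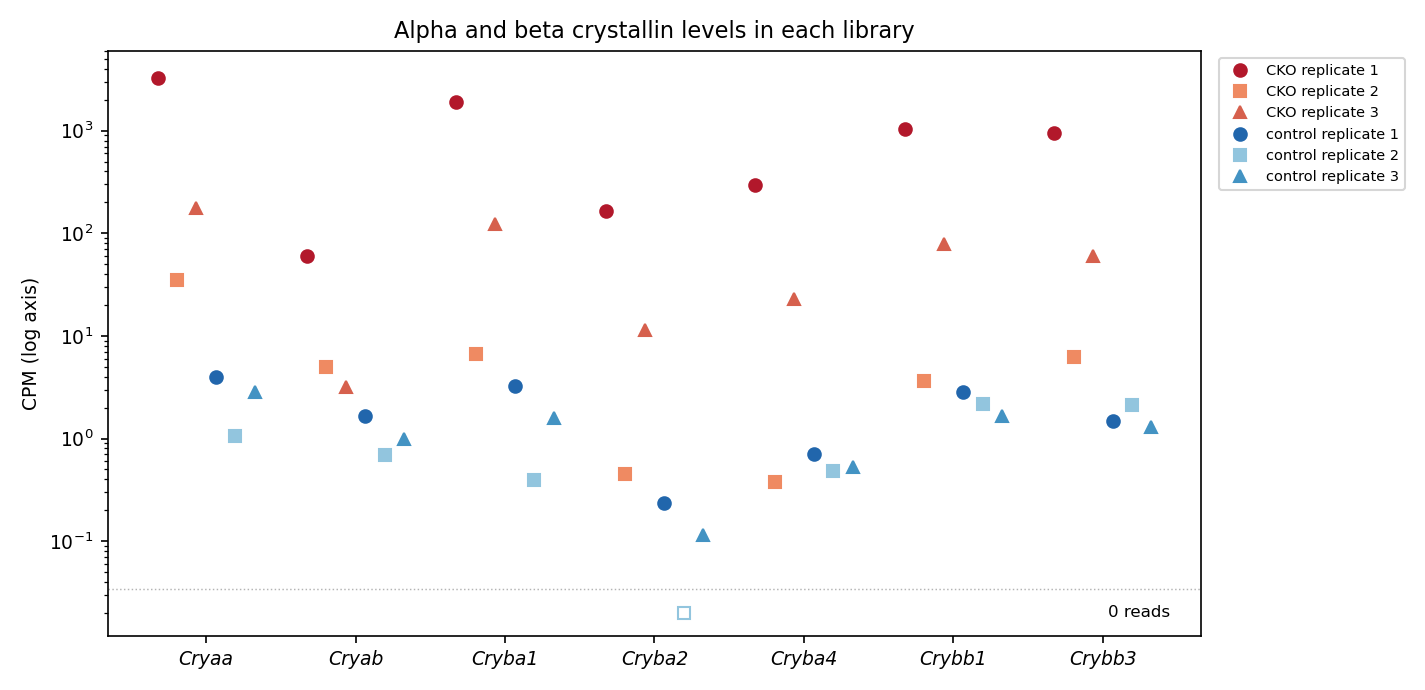
CPM on a log axis (y) for each of the 7 crystallin genes (x), with 1 point per library, the 3 CKO libraries left of the 3 controls. CKO replicate 1 is the highest library for every gene, and the open square marks Cryba2 in control replicate 2, which had 0 reads.

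Measured across genotypes, 6 of the 7 members had every CKO library above every control, a state found in 5.74% of the 14609 genes tested. This contrast is the one the members were chosen on, so the count describes them and no test is read from it. The median log2 fold change was 7.70 over the 7 members and -0.03 over all genes tested. Cryba2, with 6, 0 and 3 control reads, passed the filter on low counts only through its CKO libraries. At an adjusted p under 0.05, edgeR's quasi-likelihood test called 0 of the 7 members, against 0.897% of all genes. All 7 had an unadjusted edgeR p under 0.05, but they were chosen on this contrast. The share of all genes at that unadjusted p is not given, so such counts, here and in the lists below, are description only. DESeq2's Wald test called 6 of 7 (2.23% of all genes) and gave Cryab no adjusted p, and limma-voom called 0 (0.821% of all genes). Single libraries decided these values: without CKO replicate 1 the median log2 fold change was 4.35. Without CKO replicate 2 edgeR called 6 of the 7, all but Cryab, and 53 of all 14771 genes tested. That fit leaves out the CKO library with the lowest crystallin sum, so its count is description only. With the replicate number as a block, edgeR called Cryaa, Cryab, Cryba1 and Cryba2 (1.05% of all genes).

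The CKO libraries were related to one another in different ways. Between replicates 1 and 3 the 7 members kept nearly the same proportions, with ratios of replicate 1 to replicate 3 between 12.8 (Cryba4) and 18.8 (Cryab). Between replicates 1 and 2 the ratios ran from 12.1 (Cryab) to 791 (Cryba4), with 93.5 for Cryaa and 153 to 369 for the other 4 members. The Cryba4 ratios to replicate 2 rest on 10 reads in that library. The ratio of replicate 3 to replicate 2 accordingly ran from 0.642 for Cryab and 5.06 for Cryaa to 61.7 for Cryba4. The 2 alpha crystallins thus had the lowest ratios to replicate 2 in both comparisons, below those of all 5 beta crystallins.

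The make-up of the crystallin reads showed the same split. Alpha crystallins made up 43.2% of the reads of the 7 genes in CKO replicate 1 and 37.5% in CKO replicate 3, but 69.6% in CKO replicate 2, with a 95% exact interval of 67.2% to 71.9%. In control replicates 1 to 3 they made up 39.8%, 25.2% and 42.4%. Acidic beta crystallins took 30.7%, 13.1% and 33.1% in CKO replicates 1 to 3 and 29.5%, 12.6% and 24.8% in control replicates 1 to 3. CKO replicate 2 and control replicate 2 thus both had a low acidic beta share, the control on only 20 such reads. In number, the 200 acidic beta reads of CKO replicate 2 exceeded those of every control (106, 20 and 59). Basic beta crystallins took 26.1%, 17.3% and 29.4% in the CKO replicates and 30.6%, 62.3% and 32.8% in the control replicates, so that control replicate 2 had the highest basic beta share of the 6 libraries. Its 99 basic beta reads lay between the 78 and 110 of the other controls, whereas its 24 Cryaa and 9 Cryba1 reads were the lowest of the 6 libraries.

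The balance of the 2 alpha crystallins differed widely among the CKO libraries, each of which lay further toward Cryaa than every control. Cryaa had 54.0, 6.98 and 55.0 reads per Cryab read in CKO replicates 1 to 3, against 2.40, 1.50 and 2.88 in control replicates 1 to 3. As a share of alpha reads Cryaa was 98.2%, 87.5% and 98.2% in the CKO and between 60.0% and 74.3% in the controls. The lowest CKO interval began at 85.3% and the highest control interval ended at 82.4%, so the counting intervals did not meet. These intervals leave out variation between libraries, and a difference between genotypes in this balance was not tested. Of the reads of all 7 genes, Cryab took 0.784%, 8.72% and 0.670% in CKO replicates 1 to 3, against 10.1% to 11.7% in the controls.

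**Figure D3:**
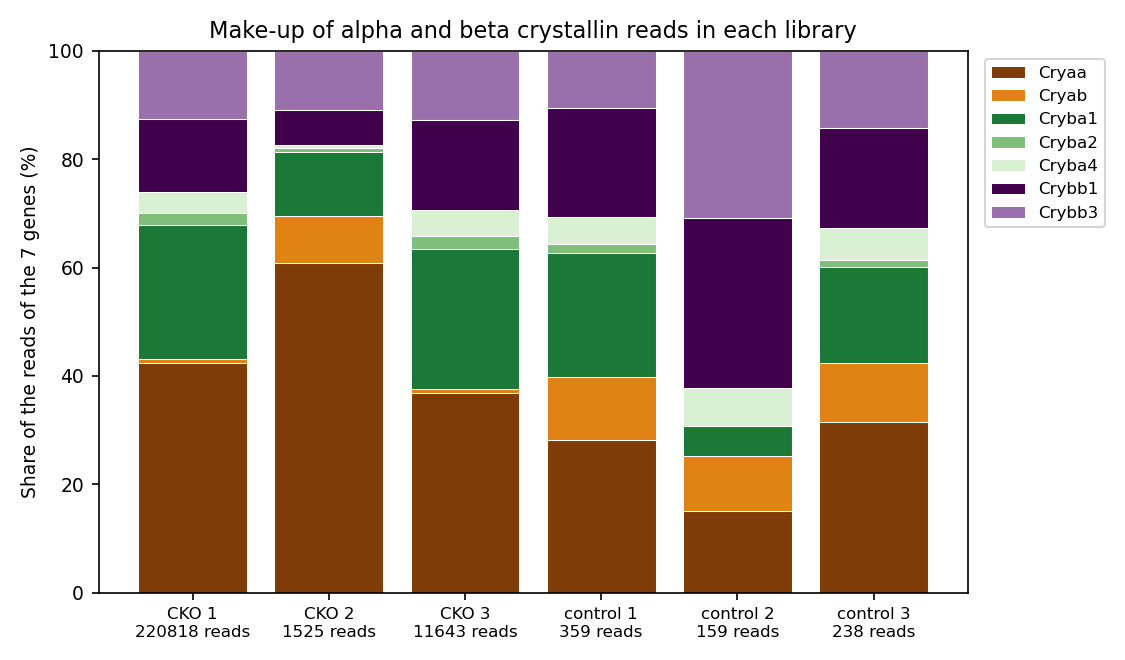
Share of the reads of the 7 crystallin genes that each gene took (y axis, percent) in each library (x axis), with the number of crystallin reads under each bar and CKO libraries on the left. CKO replicates 1 and 3 have similar bars, whereas Cryaa and Cryab fill 69.6% of the bar of CKO replicate 2.

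Levels between genes were compared per kilobase of the principal GENCODE M21 transcript, which is 720 bases for Cryba2 and 1254 bases for Cryaa at the extremes. In CKO replicate 1, Cryaa (2583 CPM per kilobase) and Cryba1 (2425) were close, followed by Crybb1 (1181), Crybb3 (1072), Cryba4 (365), Cryba2 (230) and Cryab (53.7). CKO replicate 3 had the same order except that Cryba1 (158 CPM per kilobase) came before Cryaa (140). In CKO replicate 2 Cryaa (27.6) stood 3.23-fold above the next gene, Cryba1 (8.54), while Cryab (4.45) ranked above Crybb1 (4.11), and Cryba4 (0.462) was the lowest. The controls had no common order: Cryba1, Crybb1 and Cryaa led control replicates 1, 2 and 3 in turn at 4.14, 2.47 and 2.28 CPM per kilobase, and Cryba2 was the lowest gene in all 3. In the order of the CKO means, 2 pairs of neighbours kept their order in all 3 CKO libraries: Cryba1 was 2.05-, 2.08- and 1.77-fold above Crybb1 in replicates 1 to 3, and Crybb3 was above Cryba4 in each. The other 4 pairs of neighbours changed places in 1 of the 3 libraries. Among the controls Cryba2, at 0.327 CPM per kilobase or less, lay below the lowest value of every other member.

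The gamma crystallins were set beside the alpha and beta genes, since they are made in the same fibre cells. Their 8 genes summed to 3053, 5.45 and 306 CPM in CKO replicates 1 to 3 and to 4.63, 1.88 and 2.51 CPM in control replicates 1 to 3. For gamma crystallins CKO replicate 2 stood at 1.81 times the control mean, whereas for the alpha and beta sum it stood at 5.68 times the control mean. Gamma reads made up 28.5%, 8.74% and 39.1% of all alpha, beta and gamma crystallin reads in CKO replicates 1 to 3 and 24.7%, 21.3% and 21.7% in the controls, and the 95% exact interval of CKO replicate 2, 7.43% to 10.2%, lay below those of all other libraries. Per beta crystallin read there were 0.702, 0.315 and 1.03 gamma reads in the CKO replicates and 0.546, 0.361 and 0.482 in the control replicates, so that on this measure CKO replicate 2 was close to control replicate 2. The ratio of CKO replicate 1 to replicate 3 was 7.35 to 11.3 for the 6 gamma crystallins tested, below the 12.8 to 18.8 of the alpha and beta genes. Crygn and Crygs, which did not pass the filter on low counts, had ratios of 12.3 and 50.8, so over all 8 gamma genes the ranges overlapped. Crygs, a gamma crystallin that continues to be made in the adult lens, resembled Cryab in order, with 540, 12 and 9 reads in the CKO replicates and 0, 0 and 1 in the control replicates.

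**Figure D4:**
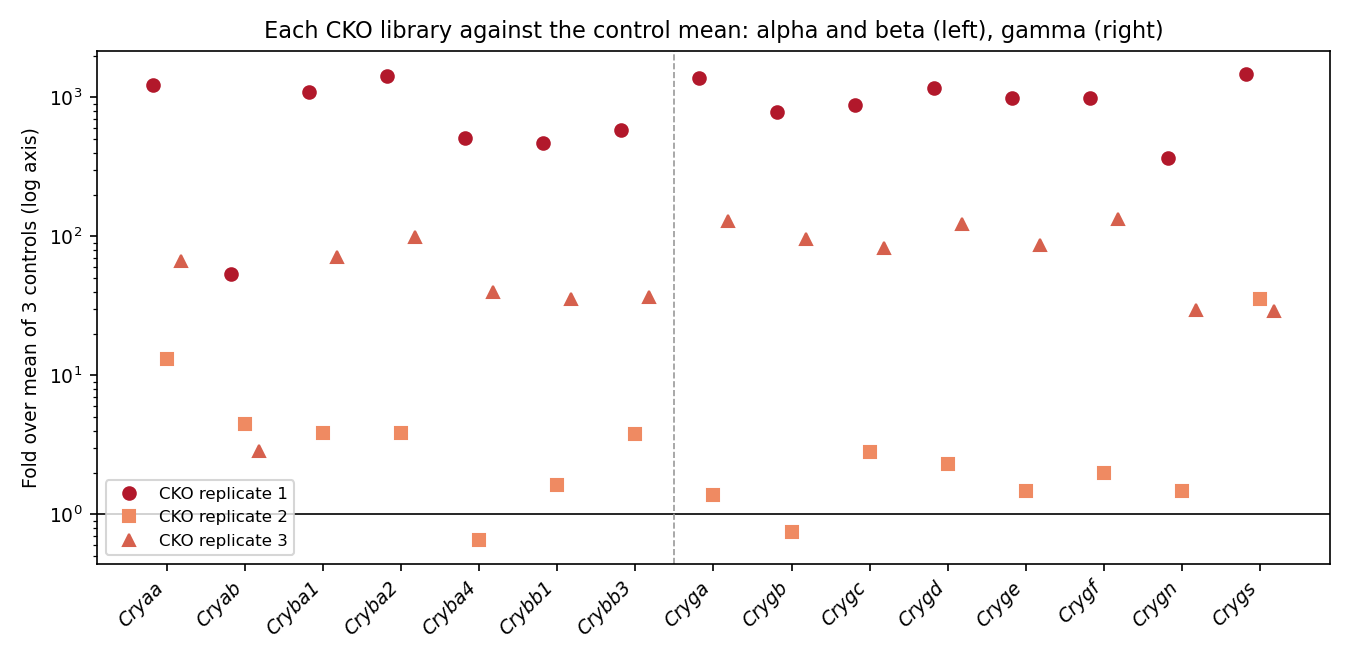
CPM of each CKO library divided by the mean of the 3 controls (y, log axis) for 7 alpha and beta crystallins (left of the dashed line) and 8 gamma crystallins (right), with the black line at equality. CKO replicate 2 lies near the line for Cryba4, Crybb1 and most gamma crystallins and at 13.2 for Cryaa.

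The 10 genes whose profile over the 6 libraries was most like the mean profile of the members, by Euclidean distance of centred log2 CPM, were Crygc (1.07), Gja3 (1.60), Mip (1.65), Lim2 (1.84), Cryge (1.96), Crygd (1.98), Crygf (2.20), Cryga (2.56), Crygb (2.66) and Bfsp2. All 10 belong to the gamma crystallin or lens fibre lists; Gja3 encodes a gap junction protein, Mip the lens aquaporin, Lim2 a fibre membrane protein and Bfsp2 a beaded filament protein. Among the members themselves the distance to their mean ran from 1.16 for Crybb1 to 4.13 for Cryab, so all 10 genes were nearer to the mean than Cryab was. The median distance over all genes tested was 8.37. All genes were measured in the same 6 libraries, and the distance is a description with no test.

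Among 14609 genes, 32 spread by at least 3 log2 units among the CKO libraries, and 30 did so among the controls. The 32 included all 7 members, with ranges from 4.20 (Cryab) to 9.36 (Cryba4), and 6 gamma crystallins, and 21 of the 32 were in a lens list. CKO replicate 1 was the highest CKO library for 29 of them. Capn3, a calpain gene that has a lens form, was in none of the lists and was chosen after its values were seen. It stood at 348, 4.85 and 20.1 CPM in the CKO replicates and at 4.52, 6.11 and 4.30 CPM in the control replicates.

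Genes of the lens outside the crystallins were given as lists. Because edgeR called 0.897% of all genes and 0 of the 7 crystallins, 0 calls in a short list does not show it unchanged. Of 12 genes for lens fibre membranes, cytoskeleton and organelle loss, 7 passed the filter and 0 were called by edgeR (median log2 fold change 5.79). Some passed only through their CKO reads, such as Lim2 (6, 3 and 0 control reads) and Gja3 (1 in each control). The median is therefore description only. The summed level of the list was 955, 21.7 and 70.8 CPM in the CKO replicates and 5.61, 6.37 and 5.41 CPM in the control replicates. Of 16 lens transcription factors 15 were tested and 0 called (median 0.04); the list summed to 2073, 2111 and 2095 CPM in the CKO and 1963, 1869 and 2187 CPM in the controls, and is led by Pax6, Six3 and Sox2, which the retina makes too. Of 6 lens epithelium genes 5 were tested and 0 called (median 0.19), with 279, 262 and 264 CPM in the CKO and 334, 197 and 275 CPM in the controls, led by Mab21l1 and Gja1, also retinal genes. The defining epithelial gene Foxe3, chosen after its values were seen, had 228, 45 and 0 reads in the CKO replicates and 0, 0 and 2 reads in the control replicates. Foxe3 encodes the forkhead factor that keeps lens epithelium dividing. At an unadjusted p under 0.05 edgeR had 6 fibre genes, 1 transcription factor (Hsf4) and 1 epithelium gene (Cdh1), as description only. DESeq2 called 6, 0 and 0 in these lists (2.23% of all genes), and limma-voom 0 in each (0.821% of all genes).

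The order of CKO replicates 2 and 3 differed between these genes. Replicate 3 was above replicate 2 for 6 of 7 alpha and beta crystallins and 7 of 8 gamma crystallins. The same held for 9 of 11 fibre genes with reads, 2 of 6 epithelium genes and 6 of 16 lens transcription factors. In the epithelium list, Mab21l1 stood at 164 and 166 CPM in CKO replicates 2 and 3, and Tfap2a at 23.8 and 19.6 CPM. Lctl of the fibre list had 0 and 2 reads. Small differences are thus counted too, and the share of all genes in this order is not given, so the counts are description only. The exceptions among the crystallins were Cryab and Crygs. Cdh1, the epithelial cadherin, had 329, 72 and 9 reads in the CKO and 16, 24 and 22 reads in the controls; it was chosen after its values were seen. Reads of the lens fibre list were, like the crystallin reads, highest in CKO replicate 1 and next in replicate 3, while the sums of the transcription factor and epithelium lists were nearly level across the CKO libraries and Foxe3 was at 0 in replicate 3. The part of other lens transcripts in the crystallin values was not tested.

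Transcription factors known to act on crystallin promoters showed a smaller spread, and these too were chosen after their values were seen. Maf, the lens MAF factor, stood at 44.2, 10.1 and 13.3 CPM in the CKO replicates and at 18.1, 13.8 and 14.5 CPM in the control replicates, so that only CKO replicate 1 lay above the controls. Hsf4, a lens heat shock factor, stood at 6.72, 0.672 and 1.10 CPM in the CKO and 0.393, 0.262 and 0.799 CPM in the controls. Prox1, a homeobox factor of lens fibres and of retinal cells, stood at 54.7, 40.6 and 36.8 CPM in the CKO and 28.7, 32.5 and 43.0 CPM in the controls. Sox1 stood at 15.6, 4.18 and 5.73 CPM in the CKO and 10.9, 7.07 and 8.26 CPM in the controls. Sox2 stood at 192, 192 and 190 CPM in the CKO, below all controls (211, 197 and 204 CPM). For Pax6, CKO replicate 1 was the lowest CKO library, with 841, 907 and 923 CPM in the CKO and 826, 776 and 874 CPM in the controls. The adjusted p values were 0.940 for Maf, 0.603 for Hsf4 and 0.916 for Prox1 (from edgeR, Benjamini-Hochberg over all genes tested), and none passed.

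Relatives of the crystallins by sequence or name that are not lens proteins gave 0 edgeR calls, against 0.897% of all genes. Of 7 non-lens betagamma and enzyme crystallin genes, all were tested (median log2 fold change -0.32), and the summed level was 130, 128 and 125 CPM in the CKO and 162, 179 and 166 CPM in the controls, so the CKO libraries lay below the controls. Crym, which encodes a thyroid hormone binding protein, stood at 19.2, 18.5 and 16.9 CPM in the CKO and at 28.1, 61.7 and 27.8 CPM in the controls. Of the 6 other small heat shock protein genes 3 were tested (median 0.13), and their sum was 7.96, 6.35 and 7.36 CPM in the CKO and 7.70, 5.41 and 7.04 CPM in the controls. Hspb2, which overlaps Cryab, had 19, 7 and 0 reads in the CKO and 0, 1 and 0 reads in the controls, so the 2 overlapping genes had the same order among the CKO libraries. Only Crym in these lists had an unadjusted edgeR p under 0.05 or a DESeq2 call (2.23% of all genes), and limma-voom called 0 (0.821% of all genes). The heat shock response genes had none of these. All 12 heat shock response genes were tested (median -0.02), with sums of 1933, 1983 and 2037 CPM in the CKO and 2169, 2187 and 1936 CPM in the controls.

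Markers of other tissues next to the retina gave 0 edgeR calls as well, against 0.897% of all genes. The same test called 0 of the 7 crystallins, so 0 calls does not show that a list was unchanged. Surface ectoderm and cornea genes summed to 13.8, 9.22 and 14.5 CPM in the CKO and 14.3, 17.2 and 9.33 CPM in the controls (5 of 10 tested, median -0.32), and Krt14 was at 0 in every library. Periocular mesenchyme genes summed to 39.7, 19.6 and 43.2 CPM in the CKO and 49.5, 75.7 and 33.2 CPM in the controls (6 of 10 tested, median 0.18). Within that list the collagen genes Col1a2, Col1a1 and Col3a1, its genes of highest mean CPM, were lowest among the CKO libraries in replicate 2. Col1a2 was at 22.7, 15.4 and 23.5 CPM in the CKO and 39.2, 64.0 and 26.8 CPM in the controls. Every CKO library thus lay below every control for Col1a2. Col1a1 was at 7.37, 0.821 and 9.77 CPM in the CKO and 3.22, 7.15 and 2.17 CPM in the controls. Col3a1 was at 6.16, 1.38 and 6.95 CPM in the CKO and 3.57, 2.05 and 1.60 CPM in the controls. Their part in the crystallin values was not tested. Pigment epithelium genes summed to 46.2, 42.3 and 38.7 CPM in the CKO and 86.5, 51.4 and 44.9 CPM in the controls (7 of 11 tested, median -0.57). CKO replicate 1, the highest library for every crystallin member, was not the highest in any of these 3 lists. The ciliary margin list (7 of 8 tested, median -0.53), the erythroid list (2 of 8 tested, median -0.67), the retinal progenitor list (10 of 10 tested, median -0.01) and the retinal neuron list (12 of 12 tested, median 0.11) held 0 called genes each. At an unadjusted p under 0.05 edgeR had 1 gene in each of the mesenchyme, ciliary margin, erythroid and retinal neuron lists, 2 in the pigment epithelium list and 0 in the ectoderm and progenitor lists, as description only. DESeq2 (2.23% of all genes) and limma-voom (0.821%) called 0 in all 7.

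**Figure D5:**
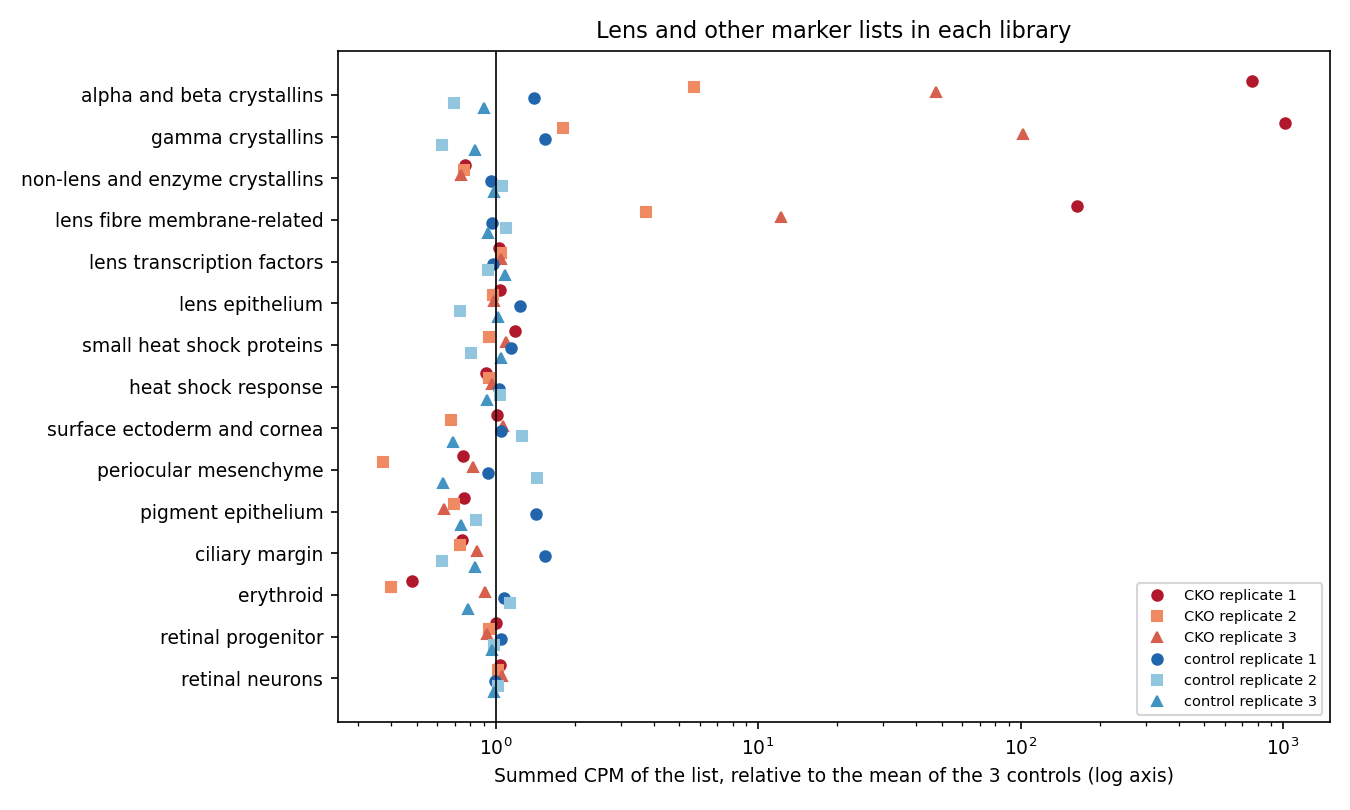
Summed CPM of each gene list in each library divided by the mean of the 3 controls (x, log axis), with lists down the page, red points for CKO and blue points for control libraries. The alpha and beta crystallin, gamma crystallin and lens fibre lists spread to the right in the CKO libraries, and no other list has a library far to the right of 1.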

How the data were processed

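Retinal RNA of 6 libraries (3 CKO, 3 control) was poly-A selected and sequenced, per the labels' protocols. The authors deposited 1 table of raw read counts per gene symbol. Build mm9 and the tools HTSeq 0.5.4p3, BWA 0.7.6a-r433 and DESeq 2.13 are named, without roles or settings, per the submitters' processing notes. In the table, 3 merge-conflict lines and 1 blank line were skipped and 1 repeated row was dropped. Groups and replicate numbers came from the sample titles.

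In edgeR 4.0.16 (R 4.3.3), filterByExpr (minimum count 10) left 14609 genes, libraries were scaled by TMM, and a quasi-likelihood test on genotype was adjusted by Benjamini-Hochberg over all genes (threshold 0.05). Each SE was taken from the F statistic, as the size of the log2 fold change over the root of F. The fit was tested on simulated data with the same dispersion for every gene. That test does not show how the fit behaves for genes that spread as widely as the crystallins. Intervals are exact binomial and cover counting error only; without molecular identifiers, PCR copies of 1 molecule cannot be recognised. Profile distances used log2 CPM with a prior count of 2. Lengths and shared runs of 50 bases came from GENCODE M21, and promoters from RefSeq on GRCm38.p6, another build than the counts.

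The members and gene lists were chosen with earlier results of these data known. Other genes named were those of highest mean CPM in a list without calls and the 10 nearest profiles, besides those marked as chosen after their values were seen; 1 gene of the fibre list is not reported here. The alternatives tried were scaling by DESeq2 size factors or library sizes alone, DESeq2 1.42.0, limma-voom (limma 3.58.1), other filters, a replicate block and leaving out each library.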

Additional observations from a re-analysis of the deposited data

How the results depend on the processing

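The median log2 fold change of the 7 crystallins stayed positive under all 13 alternatives, between 4.35 (without CKO replicate 1) and 8.28 (without CKO replicate 2), with 6.27 under the replicate block. All 89 single-member values under these alternatives were positive. The members were chosen on this contrast, so these signs are description only. Of the 89 values, 2 moved by more than 1 SD of the CKO libraries: Cryaa (5.31) and Cryab (1.87), both without CKO replicate 1. The summed CKO level, 2726 CPM, was 267 CPM without CKO replicate 1, 4061 CPM without replicate 2 and 3851 CPM without replicate 3. The number of members called by edgeR, 0, was 4 with the replicate block and 6 by DESeq2's Wald test. It was between 0 and 6 when single libraries were left out (6 without CKO replicate 2, otherwise 0). Without CKO replicate 2, 53 of all 14771 genes tested were called. Over all genes, 131 calls (28 higher, 103 lower in the CKO) became 326 with DESeq2 (117 higher, 209 lower) and 153 with the replicate block. Leaving out single libraries gave between 16 (without CKO replicate 3) and 219 calls (without control replicate 2). Deviations of same-numbered libraries had correlations of 0.336, 0.107 and -0.00775 for numbers 1 to 3. Libraries of unlike numbers had correlations between -0.253 and 0.201. With 3 libraries per group these values cannot decide whether the numbers pair the libraries. The block fit is given as an alternative only. With 5 of the 7 members left by a minimum of 1 CPM in 3 libraries (Cryba2 and Cryba4 were removed), the median was 7.70. Low counts limit the controls and CKO replicate 2. Cryba2 and Cryba4 had 0 to 18 reads per control library, and 12 and 10 reads in CKO replicate 2.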
